A study of Homo sapiens with 12 samples.

Results

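The aminoacyl-tRNA synthetases described here are 36 genes of HL60 cells, selected by gene symbol from the 59251 genes of the deposited count table. They comprise 20 enzymes of the cytosol and 16 enzymes of mitochondria, and all 36 passed the expression filter that left 13318 genes for testing. HL60 is a human acute myeloid leukemia line. RNA-Seq was performed on 12 libraries, 3 for each of 4 groups: non-treated cells, cells given 1 µM all-trans retinoic acid (ATRA), cells given palbociclib, an inhibitor of CDK4 and CDK6 abbreviated CDK4/6i, also at 1 µM, and cells given both drugs at these doses (CDK4/6i+ATRA), with treatments lasting 48 h. The samples are labelled as biological replicates of 1 cell line, and nothing in the labels says whether they were grown on separate days, so p-values measure the spread between these libraries.

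Each synthetase attaches 1 kind of amino acid to its matching tRNA, and these charged tRNAs are the substrates of the ribosome. Human cells keep separate enzymes for the cytosol and for mitochondria for most amino acids, all encoded in the nucleus, whereas GARS1 and KARS1 each serve both compartments from a single gene. EPRS1 joins glutamyl and prolyl activities in a single polypeptide, and mitochondria, which have no glutaminyl enzyme of their own, make Gln-tRNA with an amidotransferase. Synthetase genes are known targets of ATF4, the transcription factor of the amino acid response, and of the growth regulator MYC.

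Levels are given as CPM (counts scaled for library size, with TMM normalization), and changes as log2 fold changes with a standard error (SE). This SE was derived as the absolute log2 fold change divided by the square root of the F statistic of edgeR's quasi-likelihood test. A gene was called changed at a Benjamini-Hochberg adjusted p under 0.05 over all tested genes. Library totals ranged from 12230923 to 18679544 counts, so that 3 counts, taken as the floor of detection, corresponded to 0.161 to 0.245 CPM. The TMM factors ranged from 0.84 to 1.07 and were lowest in the 3 CDK4/6i+ATRA libraries. With library size alone, the median log2 fold change of all tested genes moved from 0.0184 to -0.247 in CDK4/6i+ATRA-treated against non-treated cells, and the values below are relative to the TMM scale. Of the myeloid markers, 5 of 8 were tested: with both drugs MPO fell by 7.86 on the log2 scale, CSF3R, SPI1 and LYZ were higher (1.58, 1.503 and 0.73) and CD33 did not pass the test (0.09). ELANE, AZU1 and PRTN3 had 0 counts in every library of the deposited data. Whether their transcripts were absent from the cells or lost in counting was not tested. Among markers of other cells, MS4A1, HBB and EPCAM were at 0 in every library, CD3D and COL1A1 had at most 1 and 4 counts, and CD3E was at 0.55 to 3.06 CPM. In bulk RNA, fewer cells of a type and less RNA per cell cannot be told apart.

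Most synthetase transcripts were lower in CDK4/6i+ATRA-treated than in non-treated cells. Of the 36 genes, 30 were called lower and 3 higher, against a background of 40.7% of all tested genes called lower and 41% called higher. WARS1, QARS1 and HARS2 were the ones called higher, and CARS1, HARS1 and SARS1 were not called. The median log2 fold change was -0.93, beside 0.02 over all tested genes, whose lower quartile was -0.93. The 3 CDK4/6i+ATRA libraries lay below all non-treated libraries for 30 members and above all of them for 3, compared with 40.8% and 41.1% of tested genes. For 19 members, 9 cytosolic and 10 mitochondrial, the CDK4/6i+ATRA libraries lay below every one of the other 9 libraries, which was so for 25.7% of tested genes. A fall of at least 2-fold was called for 16 members, 9 cytosolic and 7 mitochondrial, against 23.3% of all tested genes.

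**Figure D1:**
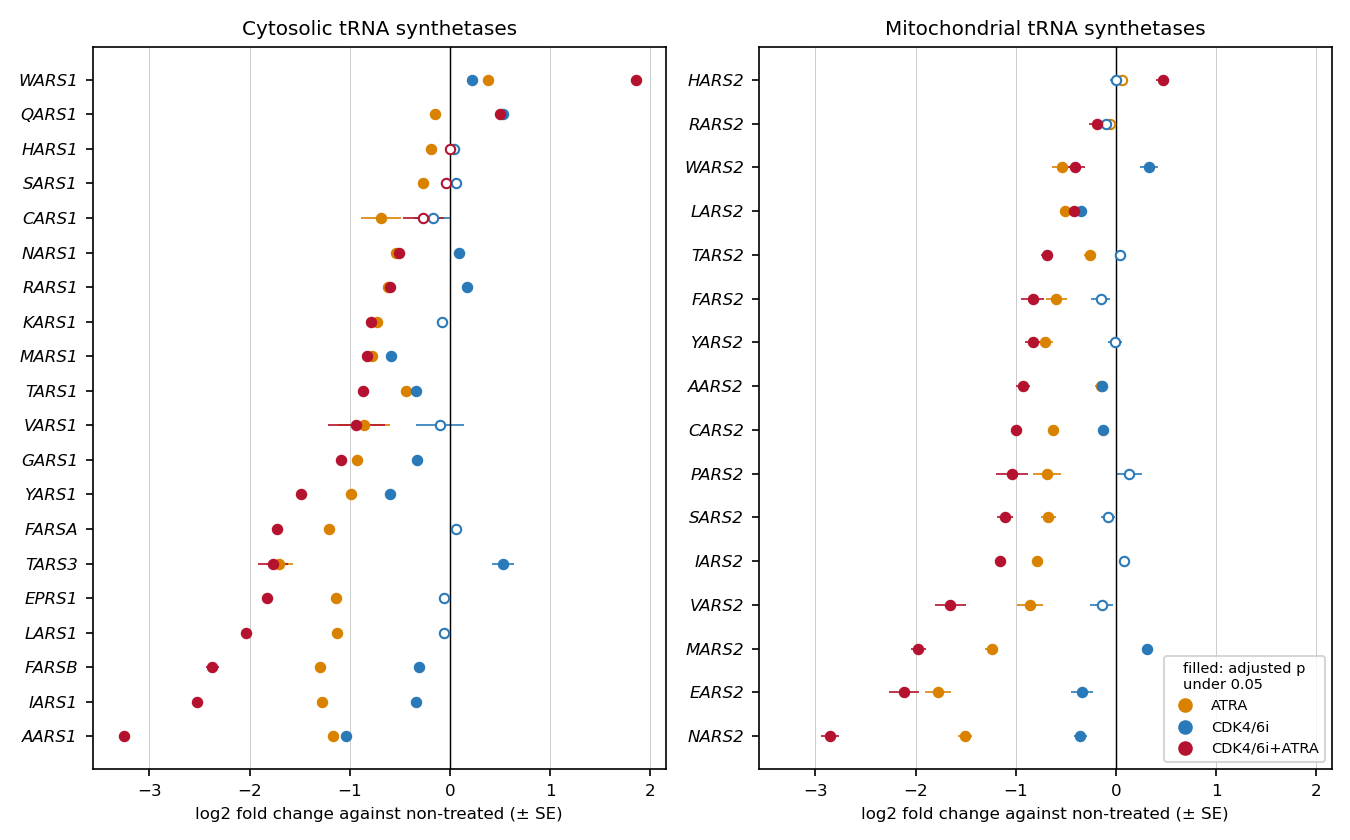
Change from non-treated cells on the log2 scale (x axis) of the 20 cytosolic (left) and 16 mitochondrial (right) synthetases with ATRA, CDK4/6i or both drugs, ordered by the change with both drugs. Bars are ± SE derived from the edgeR F statistic, with 3 libraries per group, and filled points had an adjusted p under 0.05. The change with both drugs ran from -3.25 for AARS1 to 1.86 for WARS1.

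With both drugs the medians of the 2 classes were close, and the cytosolic class had the wider range. Of the 20 cytosolic enzymes, 15 were called lower, 2 higher and 3 not called, with a median log2 fold change of -0.90 and a range from -3.25 to 1.86. Of the 16 mitochondrial enzymes, 15 were called lower and 1 higher, with a median of -0.96 and a range from -2.85 to 0.47. Summed over the class, the cytosolic enzymes gave 4619 to 4889 CPM in non-treated cells and 2850 to 3048 CPM with both drugs, a ratio of means of 0.616. The mitochondrial sum went from 864 to 881 CPM in non-treated cells to 443 to 470 CPM with both drugs, a ratio of 0.524. Neither pair of ranges overlapped.

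WARS1 and QARS1 made up more of the cytosolic sum with both drugs. WARS1 made up 3.75% ± 0.07 (SD, n = 3) of the cytosolic sum in non-treated cells and 22% ± 0.1 (SD, n = 3) with both drugs, and QARS1 went from 7.8% ± 0.209 to 17.93% ± 0.643 (SD, n = 3). Without these 2 genes, the cytosolic sum was 4078 to 4328 CPM in non-treated cells and 1735 to 1817 CPM with both drugs, a ratio of 0.419. The ratio of the whole cytosolic to the mitochondrial sum was 5.34 to 5.55 in non-treated cells, 4.96 to 5.18 with ATRA, 5.18 to 5.28 with CDK4/6i and 6.29 to 6.58 with both drugs. With both drugs it lay above all 9 other libraries, and this rested on WARS1 and QARS1. Without these 2 genes the ratio was 4.72 to 4.91 in non-treated cells, 3.94 to 4.16 with ATRA, 4.33 to 4.39 with CDK4/6i and 3.76 to 3.92 with both drugs, below the other 9 libraries. These 2 genes were picked after seeing the data, as the cytosolic members called higher with both drugs. HARS2, the mitochondrial member called higher, was kept, so the lower ratio follows in part from that choice.

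**Figure D2:**
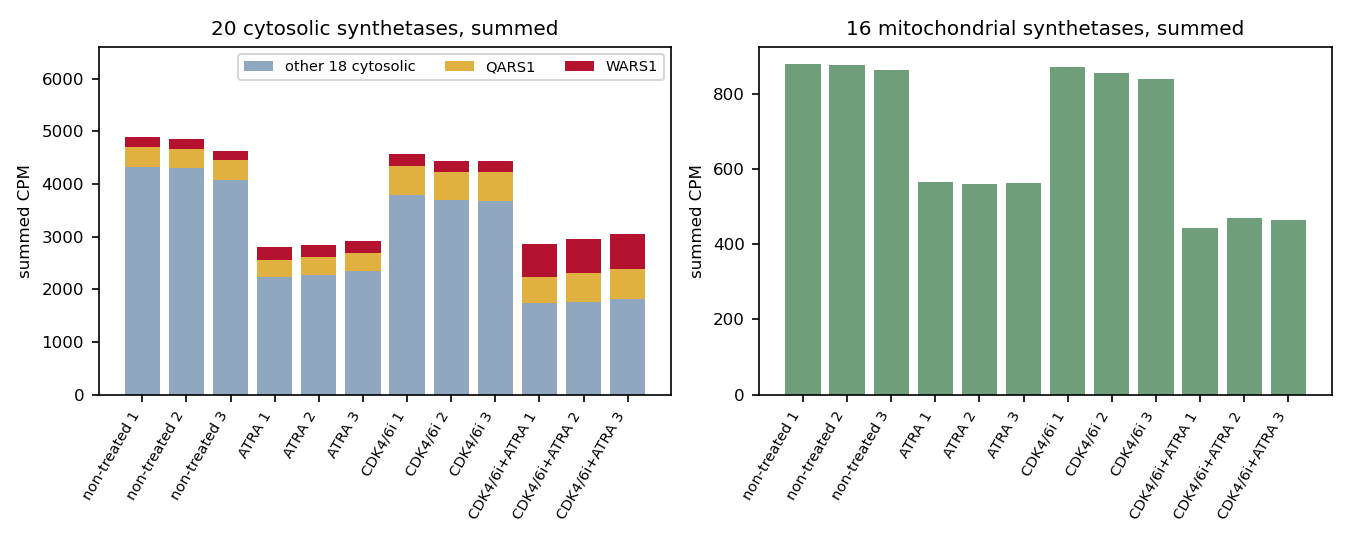
Summed CPM (y axis) of the 20 cytosolic enzymes (left, with WARS1 and QARS1 shown apart) and of the 16 mitochondrial enzymes (right) in each of the 12 libraries. The cytosolic enzymes other than WARS1 and QARS1 summed to 4078 to 4328 CPM in non-treated libraries and to 1735 to 1817 CPM with both drugs.

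Among the cytosolic enzymes, alanyl-tRNA synthetase AARS1 (chr16:70252298-70289506, minus strand, hg38 coordinates of the count table here and below) had the largest fall. AARS1 measured 162, 158 and 155 CPM in the non-treated libraries, 70.8, 69.0 and 72.5 CPM with ATRA, 77.7, 76.2 and 78.1 CPM with CDK4/6i, and 16.5, 17.4 and 16.1 CPM with both drugs. The mean level was 0.446 of the non-treated mean with ATRA, 0.488 with CDK4/6i and 0.105 with both, and the 4 groups did not overlap. The log2 fold change with both drugs was -3.25 ± 0.0577 (SE), with an edgeR adjusted p of 5.36e-43.

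Isoleucyl-tRNA synthetase IARS1 (chr9:92210207-92293697, minus strand), which works within the multi-synthetase complex, followed a similar order but responded less to CDK4/6i. It measured 401, 388 and 380 CPM in non-treated cells, 153, 163 and 166 CPM with ATRA, 309, 306 and 309 CPM with CDK4/6i, and 66.4, 67.8 and 68.8 CPM with both drugs. The 4 groups did not overlap, and the log2 fold change with both drugs was -2.53 ± 0.0433 (SE; edgeR adjusted p = 1.12e-43). IARS1 is also listed on 1 alternate contig, and reads that map to both places may be missing from its count. The same holds for CARS1, VARS1, SARS2 and VARS2, which are listed on other contigs too.

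FARSB (chr2:222566899-222656092, minus strand), the beta subunit of cytosolic phenylalanyl-tRNA synthetase, ranked next. Its levels were 191, 203 and 179 CPM in non-treated cells, 68.4, 78.4 and 86.4 CPM with ATRA, 158, 155 and 149 CPM with CDK4/6i, and 38.4, 34.1 and 38.2 CPM with both drugs. No library of one group overlapped those of another. FARSB changed by -2.37 ± 0.0611 on the log2 scale with both drugs (SE; edgeR adjusted p = 4.53e-36), and FARSA, the alpha subunit of the same enzyme, by -1.73 ± 0.0407. LARS1 (leucine, -2.04), EPRS1 (glutamate and proline, -1.83), TARS3 (a second threonyl enzyme, -1.77), YARS1 (tyrosine, -1.49) and GARS1 (glycine, -1.09) were the other cytosolic members called lower by at least 2-fold. The remaining called falls were smaller: VARS1 (valine, -0.93), TARS1 (threonine, -0.87), MARS1 (methionine, -0.83), KARS1 (lysine, -0.79), RARS1 (arginine, -0.60) and NARS1 (asparagine, -0.50). VARS1 was measured at only 0.909 to 3.69 CPM over all 12 libraries and is listed on 6 other contigs, and without CDK4/6i+ATRA replicate 3 its log2 fold change of -0.61 did not pass (edgeR adjusted p = 0.0532).

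**Figure D3:**
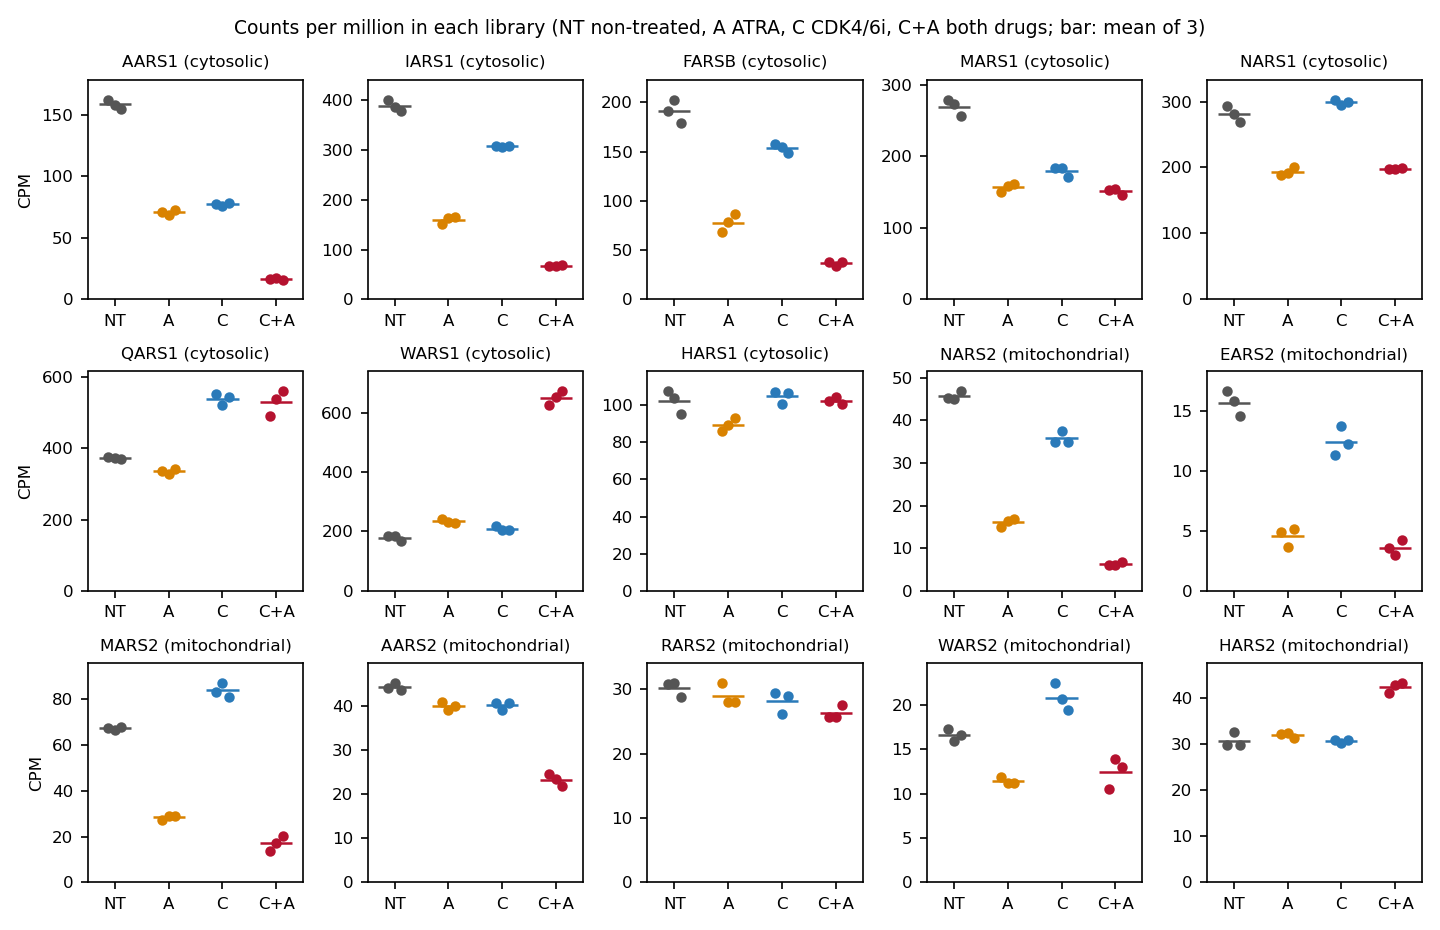
CPM (y axis, starting at 0, a scale of its own for each gene) of 15 synthetases in the 12 libraries, with points for libraries and bars for the mean of 3. AARS1 was lowest with both drugs at 16.1 to 17.4 CPM, whereas WARS1 was highest there at 625 to 671 CPM.

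WARS1 (chr14:100333790-100376327, minus strand), the cytosolic tryptophanyl-tRNA synthetase, moved opposite to most of its class. WARS1 is known as an interferon-inducible gene. It measured 185, 184 and 169 CPM in non-treated cells, 241, 232 and 230 CPM with ATRA, 218, 205 and 205 CPM with CDK4/6i, and 625, 652 and 671 CPM with both drugs. All treated libraries lay above the non-treated ones, and the CDK4/6i+ATRA libraries lay far above the rest. Its log2 fold changes were 0.38 ± 0.0405 with ATRA, 0.22 ± 0.0407 with CDK4/6i and 1.86 ± 0.0401 with both (SE; edgeR adjusted p = 7.17e-12, 5.58e-06 and 2.25e-39).

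QARS1 (chr3:49095932-49104757, minus strand), glutaminyl-tRNA synthetase, was higher with CDK4/6i alone and with both drugs. Its libraries measured 377, 372 and 372 CPM in non-treated cells, 336, 328 and 343 CPM with ATRA, 552, 523 and 545 CPM with CDK4/6i, and 491, 537 and 560 CPM with both drugs. The CDK4/6i and CDK4/6i+ATRA libraries overlapped each other and both lay above the other groups. The log2 fold change was 0.50 ± 0.0403 (SE) with both drugs (edgeR adjusted p = 4.66e-16), and CDK4/6i+ATRA against CDK4/6i gave -0.03 ± 0.0398 (edgeR adjusted p = 0.522). With library size alone the change with both drugs was 0.24, still called (edgeR adjusted p = 4.46e-08).

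NARS1 (chr18:57600656-57621836, minus strand), the cytosolic asparaginyl enzyme, had the smallest called fall of its class. It measured 293, 282 and 269 CPM in non-treated cells, 189, 191 and 201 CPM with ATRA, 302, 294 and 299 CPM with CDK4/6i, and 198, 197 and 200 CPM with both drugs. The ATRA and CDK4/6i+ATRA libraries overlapped, and both lay below the other groups (log2 fold change with both drugs -0.50 ± 0.0387, SE, edgeR adjusted p = 1.09e-16). The members not called with both drugs were SARS1 (serine, 119 to 125 CPM in non-treated cells and 113 to 128 CPM with both, log2 difference -0.04), CARS1 (cysteine, 4.08 to 4.51 and 2.76 to 4.21 CPM, -0.27, also listed on 1 other contig) and HARS1. With library size alone as the scaling, CARS1, HARS1 and SARS1 were called lower, at -0.53, -0.26 and -0.31. SARS1 was also called lower without the filter on low counts (-0.152, edgeR adjusted p = 0.0071) and without CDK4/6i+ATRA replicate 3 (-0.101, edgeR adjusted p = 0.0474).

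In mitochondria, asparaginyl-tRNA synthetase NARS2 (chr11:78435968-78574864, minus strand) had the largest fall. It measured 45.3, 45.0 and 46.7 CPM in non-treated cells, 14.9, 16.5 and 16.8 CPM with ATRA, 34.9, 37.5 and 34.9 CPM with CDK4/6i, and 6.14, 6.06 and 6.69 CPM with both drugs. The 4 groups did not overlap and the level with both drugs was 0.138 of the non-treated mean (log2 fold change -2.85 ± 0.0929, SE, edgeR adjusted p = 1.08e-31).

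EARS2 (chr16:23520754-23557375, minus strand), the mitochondrial glutamyl enzyme, was lowest in the libraries given ATRA, alone or with CDK4/6i. Its levels were 16.7, 15.9 and 14.6 CPM in non-treated cells, 4.93, 3.67 and 5.14 CPM with ATRA, 11.4, 13.8 and 12.2 CPM with CDK4/6i, and 3.58, 3.03 and 4.21 CPM with both drugs. The libraries with ATRA alone and with both drugs overlapped (log2 difference -0.34 ± 0.181, SE, edgeR adjusted p = 0.0914), and both groups lay below the rest. Against non-treated cells the change with both drugs was -2.11 ± 0.149 (SE; edgeR adjusted p = 4.65e-18). EARS2 overlaps GGA2 on the same strand, whose count was 1130% of that of EARS2, and how much of the EARS2 count came from that gene was not tested.

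MARS2 (chr2:197705369-197708395, plus strand), the mitochondrial methionyl enzyme, was higher with CDK4/6i alone and lower with ATRA. It measured 67.3, 66.7 and 67.9 CPM in non-treated cells, 27.2, 28.98 and 29.1 CPM with ATRA, 83.1, 87.0 and 81.1 CPM with CDK4/6i, and 13.6, 17.2 and 20.3 CPM with both drugs. The 4 groups did not overlap. The log2 fold changes were -1.24 ± 0.0641 with ATRA, 0.31 ± 0.0562 with CDK4/6i and -1.97 ± 0.0759 with both (SE; edgeR adjusted p = 6.56e-23, 4.13e-06 and 1.28e-28).

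The other mitochondrial members called lower by at least 2-fold with both drugs were VARS2 (valine, -1.65), IARS2 (isoleucine, -1.16), SARS2 (serine, -1.10) and PARS2 (proline, -1.04). VARS2 and SARS2 are also listed on 5 and 1 other contigs. Smaller falls were called for CARS2 (cysteine, -0.996), AARS2 (alanine, -0.93), YARS2 (tyrosine, -0.83), FARS2 (phenylalanine, -0.83), TARS2 (threonine, -0.69), LARS2 (leucine, -0.42), WARS2 and RARS2. FARS2, AARS2, CARS2 and WARS2 overlap genes on the opposite strand (LYRM4, POLR1C, ING1 and WARS2-AS1) whose counts were 242%, 96%, 29.5% and 44.5% of their own. YARS1 likewise overlaps S100PBP on the opposite strand, whose count was 11.1% of its own. Whether reads were counted by strand is not given in the sources used here.

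WARS2 (chr1:119031216-119140672, minus strand), the mitochondrial tryptophanyl enzyme, did not share the rise of WARS1. It measured 17.3, 15.9 and 16.6 CPM in non-treated cells, 11.9, 11.3 and 11.3 CPM with ATRA, 22.5, 20.7 and 19.4 CPM with CDK4/6i, and 10.5, 13.9 and 13.0 CPM with both drugs. The CDK4/6i libraries lay above and the other treated libraries below the non-treated ones, with a log2 fold change of -0.41 ± 0.104 with both drugs (SE; edgeR adjusted p = 0.000394).

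RARS2 (chr6:87513938-87589987, minus strand), the mitochondrial arginyl enzyme, had the smallest called change with both drugs. Its levels were 30.8, 31.0 and 28.8 CPM in non-treated cells, 30.9, 28.0 and 28.1 CPM with ATRA, 29.5, 26.2 and 29.02 CPM with CDK4/6i, and 25.8, 25.8 and 27.6 CPM with both drugs. The CDK4/6i+ATRA libraries lay below the non-treated ones but overlapped those with CDK4/6i. The called log2 fold change of -0.19 ± 0.0755 (SE; edgeR adjusted p = 0.018) was lost with DESeq2 (-0.18, adjusted p = 0.0548) and in turn without non-treated replicate 1 (edgeR adjusted p = 0.0501), non-treated replicate 2 (0.0546), CDK4/6i+ATRA replicate 1 (0.0545) and CDK4/6i+ATRA replicate 2 (0.0589).

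The histidyl enzymes HARS1 and HARS2 were an exception in both compartments. These genes lie head to head on chromosome 5, HARS1 on the minus strand at chr5:140673905-140691370 and HARS2 on the plus strand at chr5:140691455-140699305. The 84 bases between their annotated starts, with a GC content of 59.5%, are shown on the plus strand because both genes start from this gap (chr5:140691371-140691454, read from the GRCh38.p14 windows of RefSeq).
HARS1-HARS2 gap: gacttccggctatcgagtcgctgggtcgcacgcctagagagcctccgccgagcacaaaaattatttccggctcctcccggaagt

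HARS1 measured 107, 104 and 95.4 CPM in non-treated cells, 86.0, 89.3 and 92.9 CPM with ATRA, 107, 101 and 107 CPM with CDK4/6i, and 102, 104 and 101 CPM with both drugs. HARS2 measured 29.8, 32.7 and 29.8 CPM in non-treated cells, 32.3, 32.5 and 31.3 CPM with ATRA, 30.9, 30.3 and 31.0 CPM with CDK4/6i, and 41.1, 42.8 and 43.3 CPM with both drugs. HARS1 was lower with ATRA alone, by a log2 change of -0.19 ± 0.0456, and its CDK4/6i+ATRA libraries overlapped the non-treated ones. HARS2 was highest with both drugs, above all other libraries, with a log2 fold change of 0.47 ± 0.0658 from the non-treated level (SE; edgeR adjusted p = 1.28e-08), whereas that of HARS1 was 0.00 ± 0.0471 (edgeR adjusted p = 0.933). With library size alone the rise of HARS2 was 0.20 (edgeR adjusted p = 0.00612).

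ATRA alone lowered nearly all synthetase transcripts. Of the 36 members, 33 were called lower and 1, WARS1, higher, against 35.5% and 32.1% of all tested genes, and the median log2 fold change was -0.70 beside -0.03 over all tested genes. All 19 cytosolic members other than WARS1 fell (median of the class -0.82), as did 14 of 16 mitochondrial members (median -0.65). HARS2 (0.06) and RARS2 (-0.06) did not pass. EARS2 (-1.77), TARS3 (-1.71) and NARS2 (-1.51) had the largest falls. AARS2, at -0.15 ± 0.0586 (SE; edgeR adjusted p = 0.024), was not called with the DESeq2 test (adjusted p = 0.129), the size factors of DESeq2 (0.0811), library size alone (0.119) or a minimum of 10 counts in every library (0.0555), nor without non-treated replicate 2 (0.0764) or ATRA replicate 2 (0.0796).

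CDK4/6i alone changed fewer members and in both directions. It lowered 12 members and raised 7, against 27.9% and 28.3% of all tested genes, and left 17 uncalled, with a median log2 fold change of -0.08 beside 0.02. The cytosolic members called lower were AARS1 (-1.03), YARS1 (-0.60), MARS1 (-0.58), TARS1 (-0.34), IARS1 (-0.34), GARS1 (-0.33) and FARSB (-0.31). The mitochondrial ones were NARS2 (-0.36), LARS2 (-0.35), EARS2 (-0.34), AARS2 (-0.14) and CARS2 (-0.13). QARS1 (0.53), TARS3 (0.53), WARS2 (0.33), MARS2 (0.31), WARS1 (0.22), RARS1 (0.17) and NARS1 (0.09) were called higher. The NARS1 and AARS2 calls each depended on the processing and on single libraries. NARS1 was lost without the filter on low counts (edgeR adjusted p = 0.233), and AARS2 without that filter (0.0985), with library size alone (0.0754), with the size factors of DESeq2 (0.0552) and with its test (0.0953). NARS1 was also lost without non-treated replicate 2 or 3 or CDK4/6i replicate 1 or 3, and AARS2 without non-treated replicate 1 or 2 or CDK4/6i replicate 2 or 3. EARS2 was lost without CDK4/6i replicate 1 (edgeR adjusted p = 0.0503).

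Adding ATRA to CDK4/6i lowered most members. Against CDK4/6i alone, CDK4/6i+ATRA gave 29 members called lower and 2 higher (WARS1, 1.63, and HARS2, 0.46), against 39.5% and 39.1% of all tested genes, with a median of -0.81 beside 0.00 over all tested genes. NARS2 (-2.50), TARS3 (-2.30) and MARS2 (-2.29) fell most in that comparison. The calls of SARS1 (-0.10) and VARS1 (-0.83) were lost when single libraries were left out, for SARS1 without CDK4/6i replicate 1 or 3 or CDK4/6i+ATRA replicate 1 or 2 (edgeR adjusted p = 0.0581 to 0.183) and for VARS1 without CDK4/6i replicate 3 (0.0527) or CDK4/6i+ATRA replicate 3 (0.112). The SARS1 call was also lost with the DESeq2 test (adjusted p = 0.0818), with the size factors of DESeq2 (0.0564) and with a minimum of 10 counts in every library (0.107). Adding CDK4/6i to ATRA had a smaller and more divided effect, with 17 members called lower and 5 higher against 32.8% and 36.9% of all tested genes, and a median of -0.29 beside 0.04. The class medians stood apart there, at -0.07 for the cytosolic and -0.36 for the mitochondrial members, a difference that was not tested. With library size alone the split of that comparison was 28 lower and 2 higher, on a scale where the median of all tested genes was -0.26. The higher members were WARS1 (1.47), QARS1 (0.66), HARS2 (0.41), SARS1 (0.23) and HARS1 (0.19), of which WARS1 and QARS1 were called higher on both scales, and HARS1 and SARS1 turned negative at -0.11 and -0.08 with library size alone. Without the filter on low counts the split was 24 lower and 4 higher, and HARS1 was not called (edgeR adjusted p = 0.153). The lowest was AARS1, at -2.09. Called lower than with either drug alone were 17 members, 9 cytosolic and 8 mitochondrial, against 26% of all tested genes.

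The interaction is the log2 fold change with both drugs minus the added changes with each drug alone. It was called negative for 16 members and positive for 7, against 27% and 24.5% of all tested genes, with a median of -0.13 beside -0.02 (-0.02 for the cytosolic and -0.29 for the mitochondrial members). AARS1 had the lowest value, -1.05 ± 0.0783 (SE; edgeR adjusted p = 2.62e-16), the change with both drugs (-3.25) being a larger fall than the single-drug changes (-1.16 and -1.03) added together. MARS2 followed at -1.05 ± 0.102 (SE; edgeR adjusted p = 1.71e-12). NARS2 (-0.99), IARS1 (-0.91), LARS1 (-0.85) and FARSB (-0.76) came next. The 16 negative interactions were all of members called lower with both drugs. A further 11 of the 30 lower members had no called interaction, EARS2 (0.00) and YARS1 (0.10) among them.

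WARS1 had the highest interaction, 1.25 ± 0.0563 (SE; edgeR adjusted p = 1.77e-24). MARS1, the cytosolic methionyl enzyme, came second among the called interactions with 0.53 ± 0.058 (SE; edgeR adjusted p = 4.9e-11), and CARS1 measured 0.60 without passing (edgeR adjusted p = 0.0793). The CARS1 interaction was called without ATRA replicate 1 (0.72, edgeR adjusted p = 0.048) and without CDK4/6i+ATRA replicate 2 (0.744, edgeR adjusted p = 0.0379). MARS1 measured 279, 273 and 257 CPM in non-treated cells, 150, 159 and 162 CPM with ATRA, 183, 184 and 172 CPM with CDK4/6i, and 153, 155 and 146 CPM with both drugs. The ATRA and CDK4/6i+ATRA libraries overlapped, with a log2 difference of -0.05 that was not called. MARS1 (chr12:57488068-57516652, plus strand) overlaps ARHGAP9 and DDIT3 on the opposite strand, with counts of 58.4% and 4.02% of its own. With library size alone, the interaction was called positive for WARS1 (0.93) and MARS1 (0.21) and negative for 29 members, on a scale where the median of all tested genes was -0.34.

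**Figure D4:**
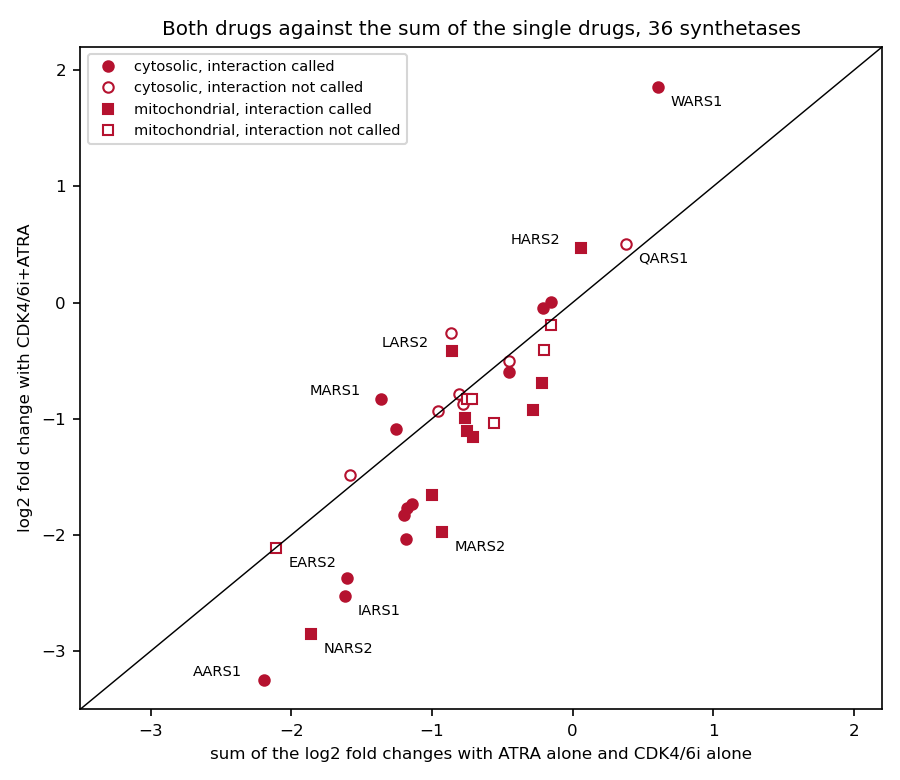
Log2 fold change of CDK4/6i+ATRA-treated over non-treated cells (y axis) and the added log2 fold changes of ATRA alone and CDK4/6i alone (x axis) for 36 synthetases, with the line of equality. Filled symbols had a called interaction. AARS1, with an interaction of -1.05, lies below the line and WARS1, with 1.25, above it.

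Enzymes of the same amino acid could move apart between the compartments. Pairing the genes by amino acid gave 17 pairs, in which EPRS1 and FARS2 each appear in more than 1. With both drugs, the cytosolic enzyme had the lower log2 fold change in 10 pairs and the mitochondrial one in 7. The log2 ratio of cytosolic to mitochondrial CPM did not overlap between non-treated and CDK4/6i+ATRA libraries in 15 pairs, lower with both drugs in 9 and higher in 6. With 3 libraries against 3, the smallest p of a two-sided exact permutation test is 0.1 (0.113 after adjustment over the 17 pairs), so this test cannot reach 0.05 with these libraries.

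The asparaginyl, alanyl and tryptophanyl pairs differed most. The log2 ratio of NARS1 to NARS2 was 2.53 to 2.69 in non-treated cells, 3.53 to 3.67 with ATRA, 2.97 to 3.12 with CDK4/6i and 4.90 to 5.02 with both drugs, a change of 2.36. In the alanyl pair the change ran the other way. AARS2 (chr6:44298731-44313347, minus strand) measured 44.1, 45.2 and 43.5 CPM in non-treated cells, 40.8, 39.1 and 40 CPM with ATRA, 40.8, 39.2 and 40.7 CPM with CDK4/6i, and 24.7, 23.4 and 21.9 CPM with both drugs. The log2 ratio of AARS1 to AARS2 accordingly went from 1.81 to 1.88 in non-treated cells to -0.58 to -0.43 with both drugs, so that AARS1 had more counts than AARS2 in non-treated libraries and fewer with both drugs. For the tryptophanyl pair WARS1 and WARS2, the log2 ratio was 3.35 to 3.53 in non-treated cells, 4.34 to 4.37 with ATRA, 3.28 to 3.40 with CDK4/6i and 5.55 to 5.89 with both. The changes of these 3 pairs were of nearly the same size (2.36, -2.32 and 2.28), and with log2(CPM + 1) their order turned, to -2.28 for alanine, 2.24 for tryptophan and 2.18 for asparagine. The ranges with both drugs lay outside those of the other 3 groups in each of these pairs.

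**Figure D5:**
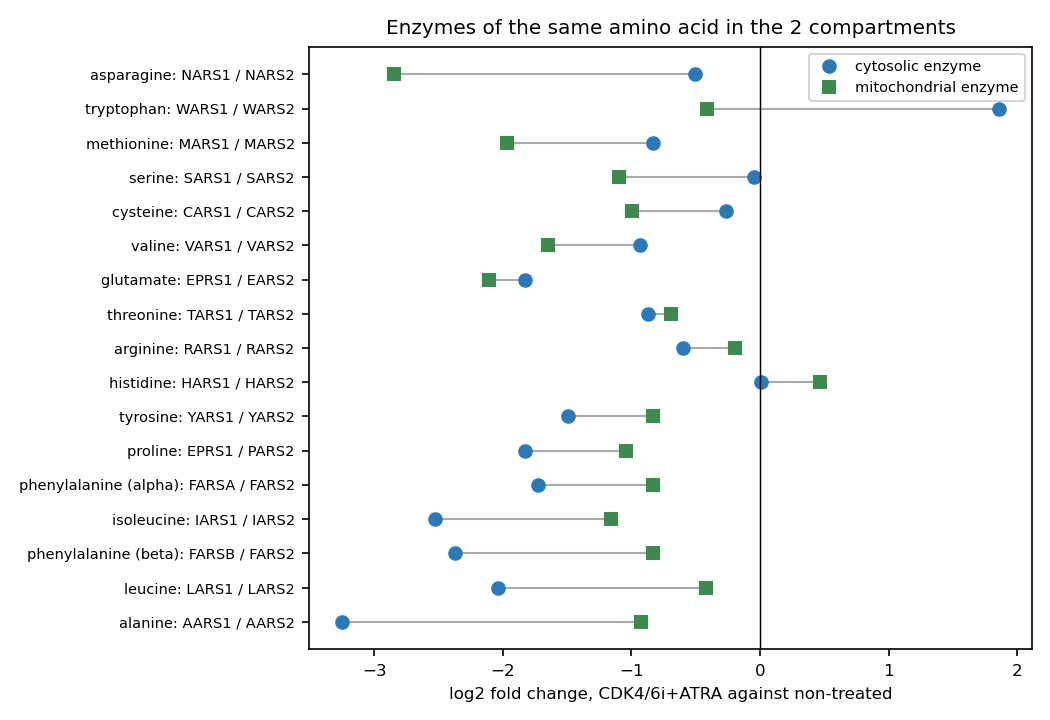
Log2 fold change of CDK4/6i+ATRA-treated over non-treated cells (x axis) of the cytosolic (circle) and mitochondrial (square) enzyme of the same amino acid, for 17 pairs ordered by their difference. The asparaginyl pair (NARS1 -0.50, NARS2 -2.85) and the alanyl pair (AARS1 -3.25, AARS2 -0.93) stand at the ends.

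Per length, WARS1 and QARS1 took over the top of the order. In non-treated cells the highest CPM per kilobase of annotated exon were those of FARSA (201 ± 3.94, SD, n = 3), QARS1 (152), KARS1 (130), YARS1 (127) and GARS1 (120). KARS1 and YARS1 overlapped, at 127 to 131 and 123 to 130 CPM per kilobase, as did YARS1 and GARS1. With both drugs QARS1 was first at 216 ± 14.4 and WARS1, which ranked 13 in non-treated cells, was next at 209 CPM per kilobase (SD, n = 3, for QARS1). These 2 genes did not differ beyond their spread, with ranges of 200 to 229 for QARS1 and 201 to 215 for WARS1. AARS1 moved from rank 15 to rank 26. VARS1 and VARS2 had the lowest 2 means in both groups. In non-treated cells VARS2, at 0.491 to 0.536 CPM per kilobase, overlapped FARS2, at 0.481 to 0.581. The annotated lengths of VARS1 and VARS2 sum copies on several contigs, and reads that map to several places may be missing. Their levels per length are therefore too low by an unknown amount.

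Subgroups drawn by textbook knowledge gave similar counts with both drugs. The multi-synthetase complex joins a set of cytosolic enzymes with 3 scaffold proteins. Of its 7 enzymes measured here, 6 were called lower and 1, QARS1, higher, with a median of -0.83, and of the 13 cytosolic enzymes outside it 9 were lower and 1 higher, with a median of -0.93. The scaffold genes EEF1E1 (-2.29), AIMP2 (-2.05) and AIMP1 (-0.37) were all called lower. Of 18 enzymes with a class I fold 15 were lower and 2 higher (median -0.88), and of 17 with a class II fold 14 were lower and 1 higher (median -0.93). Both genes that serve the 2 compartments, GARS1 and KARS1, were lower. Of 12 synthetases known to respond to ATF4, 9 were called lower and 1 higher (median -0.98). These counts are to be read against the 40.7% and 41% of all genes called lower and higher.

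Promoter windows of RefSeq (GRCh38.p14), from 250 bases before to 50 after an annotated start, were found for 30 of the 36 members. They were not found for LARS1, YARS1, VARS1, TARS3, VARS2 and AARS2. The letters TGATGNAA, the core of the ATF4 response element, were searched on both strands and occurred in 8 of the 39 windows of members, beside 3.62% of all 35116 windows. Counted by gene, they occurred in 7 of 16 cytosolic and in 1 of 14 mitochondrial members, some of which have more than 1 window. They are shown because most are of cytosolic members, each as 30 bases on the strand of its gene with the match in capitals.
AARS1, chr16:70289675-70289704, minus: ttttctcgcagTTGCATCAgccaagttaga
CARS1, chr11:3057407-3057436, minus: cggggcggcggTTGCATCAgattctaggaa
GARS1, chr7:30594834-30594863, plus: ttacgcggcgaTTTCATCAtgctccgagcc
IARS1, chr9:92293692-92293721, minus: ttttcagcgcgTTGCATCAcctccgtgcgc
MARS1, chr12:57488053-57488082, plus: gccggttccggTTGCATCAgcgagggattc
NARS1, chr18:57621804-57621833, minus: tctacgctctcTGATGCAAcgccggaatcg
TARS1, chr5:33440956-33440985, plus: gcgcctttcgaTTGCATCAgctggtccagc
YARS2, chr12:32756076-32756105, minus: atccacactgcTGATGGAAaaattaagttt

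Members with this match spanned nearly the whole range of falls. With both drugs the 7 cytosolic genes went from AARS1 (-3.25) and IARS1 (-2.53) through GARS1 (-1.09), TARS1 (-0.87) and MARS1 (-0.83) to NARS1 (-0.50) and the uncalled CARS1 (-0.27). A match is a description of these letters and shows no binding. The E-box letters CACGTG, a known site of MYC and MAX, occurred in IARS1, CARS2, EARS2 and MARS2 (5 of 39 member windows, beside 7.26% of all windows), and the NRF1 core GCATGCGC in MARS2 and YARS2 (2 of 39, beside 3.05%). The gamma-activated site TTCNNNGAA, known from interferon-inducible genes, occurred in CARS1, TARS1, WARS1, PARS2 and WARS2 (7 of 39, beside 7.66%). With both drugs, TARS1 (-0.87), PARS2 (-1.04) and WARS2 (-0.41) of these were called lower, and CARS1 (-0.27) was not called. The match of WARS1, picked because it is the member with the largest rise, is shown in the same way.
WARS1, chr14:100375471-100375500, minus: agctcaagtgtTTCTGAGAAtctgggtgat

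The regulators with known sites of this kind changed as follows. MYC measured 1301, 1297 and 1278 CPM in non-treated cells, 141, 155 and 156 CPM with ATRA, 1190, 1193 and 1166 CPM with CDK4/6i, and 77.5, 91.8 and 84.0 CPM with both drugs. It was far lower in all 6 libraries with ATRA, and it changed on the log2 scale by -3.10 with ATRA, by -0.13 with CDK4/6i and by -3.94 with both. ATF4 measured 458, 447 and 432 CPM in non-treated cells, 272, 270 and 274 CPM with ATRA, 314, 318 and 302 CPM with CDK4/6i, and 321, 293 and 278 CPM with both drugs. All treated libraries of ATF4 lay below the non-treated ones (log2 fold change with both drugs -0.58 ± 0.0402, SE, edgeR adjusted p = 2e-18), and its interaction was positive at 0.65. Of 7 regulators, 2 were called higher and 4 lower with both drugs (41% and 40.7% of all tested genes), with IRF1, an interferon response factor (2.72), and TFAM, a mitochondrial transcription factor (-1.05), the largest changes beside MYC. The part of any regulator in the synthetase changes was not tested.

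Genes that work next to the synthetases fell in most lists, whose counts are to be set beside the 40.7% of all tested genes called lower and the 41% called higher. Of 16 genes of the ATF4 amino acid response, 12 were called lower and 3 higher with both drugs, the largest being PHGDH (-5.74) and PSAT1 (-5.24) of serine synthesis, and CHAC1 (-5.73), a glutathione-degrading enzyme. CHAC1 was at 0 to 0.0891 CPM with both drugs, under the floor of 3 counts, so its fitted change is no bound. Of 11 tested genes of tRNA end processing, splicing and export 10 were lower and 1 higher, with XPOT (-2.53, tRNA export) and POP1 (-1.78, RNase P) among the lower ones. All 4 genes of the mitochondrial Gln-tRNA amidotransferase and the Met-tRNA formyltransferase were lower, GATB (-1.17), QRSL1 (-1.04) and MTFMT (-1.01) most. DTD1 (-1.35) and DTD2 (-1.68), which remove mischarged D-amino acids, were the 2 tested genes of tRNA editing in trans and both were lower. Of 9 mitochondrial translation factors 7 were lower and 2 higher, with TSFM (-1.43), MTIF2 (-1.28) and GFM1 (-0.86) the largest. Of 5 genes of selenocysteine-tRNA synthesis 2 were lower, SEPHS1 (-2.14) and EEFSEC (-1.28), and 2 higher, the larger being SEPHS2 (0.82).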

How the data were processed

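The authors aligned directional RNA-Seq reads with STAR (2.7.11a) to hg38 with the NCBI RefSeq annotation and deposited raw counts per gene, which are whole numbers without normalization. Their methods name RSEM, whereas the table has the layout of featureCounts, and the submitters' processing notes also list Trimmomatic (0.33). The counts were used as deposited, with groups taken from the labels. The members and gene lists were chosen with earlier results of these data known. Low-count genes were removed by edgeR's filterByExpr, and the rest were TMM-normalized and tested by edgeR 4.0.16 (R 4.3.3) quasi-likelihood F tests on a model of the 4 groups over all 13318 tested genes, with Benjamini-Hochberg adjustment and a threshold of 0.05. DESeq2 1.42.0 was an alternative. Total counts per library bound the precision, and the floor of 3 counts covers counting error only. Replicates of a group differed by a chi-square of 1.85 to 6.81 per degree of freedom and were kept as separate samples. All 36 members are named. Values of every library are given for the 3 lowest and 3 highest called changes with both drugs in each class, the 2 lowest and 2 highest called interactions, the 3 most different pairs, HARS1, HARS2, MYC and ATF4. Other lists name at most 3 genes. Some genes that these rules cover are not reported here. Pair ratios were compared by exact permutation tests. Alternatives replaced TMM by library size alone or by the size factors of DESeq2, set a minimum of 10 counts in every library or none, used the DESeq2 test, added a replicate block, fitted the compared groups only, left out each library, and used log2(CPM + 1) for pairs. Leaving out the 5 members listed on other contigs, and QARS1 and WARS1 from the cytosolic sum, was added after seeing the data.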

Additional observations from a re-analysis of the deposited data

Results flagged for a closer look

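The 23 members below had a called interaction, that is, the effect of one drug differed with the other drug present (edgeR adjusted p under 0.05 over all tested genes). Negative values of the log2 interaction among cytosolic enzymes were -1.05 for AARS1, -0.91 for IARS1, -0.85 for LARS1, -0.76 for FARSB, -0.63 for EPRS1, -0.59 for TARS3, -0.59 for FARSA and -0.14 for RARS1. Among mitochondrial enzymes they were -1.05 for MARS2, -0.99 for NARS2, -0.66 for VARS2, -0.64 for AARS2, -0.47 for TARS2, -0.45 for IARS2, -0.35 for SARS2 and -0.23 for CARS2. Positive values were 1.25 for WARS1, 0.53 for MARS1, 0.44 for LARS2, 0.40 for HARS2, 0.17 for SARS1, 0.17 for GARS1 and 0.16 for HARS1. The calls of HARS1, RARS1, SARS1 and TARS3 were lost when some single libraries were left out, and those of HARS1 and SARS1 also with the DESeq2 test (adjusted p = 0.131 and 0.0654). Without the filter on low counts the calls of GARS1, HARS1 and SARS1 were lost, and with library size alone those of HARS2 and LARS2.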

How the results depend on the processing

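The number of members called stayed within 1.5 times its reported value in all 6 comparisons under every alternative, and without each library in turn it was 33 to 34 with ATRA, 17 to 19 with CDK4/6i, 32 to 33 with both drugs, 29 to 31 against CDK4/6i, 22 to 24 against ATRA and 20 to 23 for the interaction. No class median changed sign. Library size alone moved the cytosolic median to -1.17 with both drugs, -1.04 against CDK4/6i, -0.375 against ATRA and -0.339 for the interaction, and the mitochondrial median to -1.23, -1.12, -0.665 and -0.61 in the same order and to -0.611 with ATRA alone. That scaling also shifted the median of all tested genes. Without the filter the cytosolic median was -1.01 with both drugs, -0.864 against CDK4/6i and -0.164 against ATRA, and the mitochondrial one -1.07 with both drugs and -0.451 against ATRA, and the cause was not tested. Without the filter the split was 4 higher and 18 lower for the interaction and 4 higher and 24 lower against ATRA. Leaving out single libraries gave cytosolic medians of -0.99 to -0.856 with both drugs (lowest without CDK4/6i+ATRA replicate 2) and -0.16 to -0.0672 against ATRA (lowest without CDK4/6i+ATRA replicate 1). Leaving out the 5 members on other contigs, an alternative chosen after seeing the data, gave a mitochondrial median of -0.613 with ATRA.

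Library size alone reversed 12 single values that were called on that scale, on the TMM scale or on both. These were HARS1 with both drugs (-0.261), HARS1 (-0.112), NARS1 (-0.274), RARS1 (-0.28), SARS1 (-0.078) and LARS2 (-0.213) against ATRA, and the interactions of GARS1 (-0.149), HARS1 (-0.162), KARS1 (-0.305), QARS1 (-0.194), SARS1 (-0.149) and YARS1 (-0.221). Beside these 12, over all alternatives 3939 single-gene values kept their side of the threshold, 66 lost the call and 51 gained it. Among the 3939, called values kept their direction, whereas uncalled ones could change sign. HARS1 with both drugs, for example, ran from -0.0434 to 0.0417 when single libraries were left out. Replicate numbers did not pair the samples (correlations of same-numbered samples -0.0702 to 0.0328, 0 of 18 pairs over 0.1). With the replicate block, 34, 18, 33, 31, 22 and 21 members were called in the 6 comparisons in the order above, and the calls of NARS1 with CDK4/6i (adjusted p = 0.0578) and of the HARS1 (0.0525) and RARS1 (0.0537) interactions were lost. Leaving out 1 library cost 12 calls of single genes over the 6 comparisons. The ratio of pairs on log2(CPM + 1) changed direction in 0 of 17 pairs, and that of EPRS1 to EARS2 moved from 0.301 to 0.0387. Without QARS1 and WARS1, chosen after seeing the data, the ratio of the cytosolic to the mitochondrial sum differed between both drugs and non-treated cells by -0.976 in place of 0.964. VARS1 and CARS1, with few counts, had the largest standard errors with both drugs (0.286 and 0.205).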
